A study of Homo sapiens with 3 samples.

Results

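The genes described here are 41 whose promoters are known as targets of DNA hypermethylation in colorectal cancer, taken from a list of gene names, with no measured value in the rule. Every probe set that the array annotation assigned to exactly 1 of the 41 symbols was kept, with no filter on its level. This gave 112 probe sets of 40 genes, out of 54613 probe sets and 19775 named genes on the array. CDH13, the gene of T-cadherin, had no such probe set in the annotation used here and was not analysed. RNA came from HCT116, a human colorectal carcinoma line, infected with lentivirus and harvested following 6 days of puromycin selection. The depleted group held 1 array with UHRF1 hairpin 2 and 1 array with UHRF1 hairpin 5, and the control was 1 array with a scrambled hairpin. The labels do not say how the cultures were kept apart, so the p-values below rest on the spread between the 2 hairpin arrays, which may be technical. In limma, this spread is moderated by that of all probe sets, so a p-value does not rest on its own probe set alone. Both differences were taken against the same control array, so an error in that array moves both alike.

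Methylation of CG dinucleotides across a promoter is a common way in which colorectal cancers silence genes. After each round of replication the new DNA strand is unmethylated, and UHRF1 binds the hemimethylated sites and brings the maintenance methyltransferase DNMT1 to them. The listed genes include secreted inhibitors of Wnt signalling, developmental transcription factors, cell cycle and repair genes, protease inhibitors and secreted peptides. CACNA1G, NEUROG1, RUNX3 and SOCS1 belong to a marker panel that defines the CpG island methylator phenotype, and methylated NDRG4 and BMP3 DNA is measured in stool to screen for colorectal cancer. DNA methylation itself was not measured here.

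Promoter sequence was available for 31 of the 41 genes from RefSeq (GRCh38.p14), as windows running from 250 bases before a transcription start to 50 bases after it. Where a gene had several starts, the window with the highest observed over expected CG ratio was used. The median ratio over the 31 genes was 0.82, against 0.63 over 27305 genes of the table. A ratio of at least 0.6 was found for 29 of the 31 genes (93.5%), against 51.9% of the genes of the table. The exceptions were SFRP2, at 0.55, and XAF1, at 0.29. The 31 genes had 47 windows and the 27305 genes 35116, so taking the highest window favours the members. HIC1, BMP3, PTGIS, CACNA1G, GATA5, DKK3, GATA4, IGFBP7, SFRP1 and CDH13 were not matched. The 6 windows below are shown because the results turn on these genes: XAF1 differed most on any array, NDRG4 and SPOCK2 were higher on both depleted arrays, DKK1 was expressed and lower on both, and SFRP2 and TFPI2 are examples near background. They are written 5′ to 3′ on the strand of the gene, with each CG dinucleotide in capitals.
XAF1 (chr17:6755796-6756095, plus strand): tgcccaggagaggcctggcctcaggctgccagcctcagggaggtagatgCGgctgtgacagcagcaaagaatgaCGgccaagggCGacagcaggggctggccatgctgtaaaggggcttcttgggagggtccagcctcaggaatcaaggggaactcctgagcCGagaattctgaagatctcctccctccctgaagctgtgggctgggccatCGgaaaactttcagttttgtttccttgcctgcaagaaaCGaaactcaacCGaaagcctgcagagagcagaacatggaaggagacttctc
NDRG4 (chr16:58463465-58463764, plus strand): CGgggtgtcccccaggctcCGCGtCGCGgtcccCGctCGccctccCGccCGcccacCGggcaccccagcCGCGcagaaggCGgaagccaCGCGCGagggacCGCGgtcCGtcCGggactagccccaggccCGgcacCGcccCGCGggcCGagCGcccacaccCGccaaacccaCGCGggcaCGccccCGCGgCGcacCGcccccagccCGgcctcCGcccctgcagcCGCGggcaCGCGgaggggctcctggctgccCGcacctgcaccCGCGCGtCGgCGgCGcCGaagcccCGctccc
SPOCK2 (chr10:72088502-72088801, minus strand): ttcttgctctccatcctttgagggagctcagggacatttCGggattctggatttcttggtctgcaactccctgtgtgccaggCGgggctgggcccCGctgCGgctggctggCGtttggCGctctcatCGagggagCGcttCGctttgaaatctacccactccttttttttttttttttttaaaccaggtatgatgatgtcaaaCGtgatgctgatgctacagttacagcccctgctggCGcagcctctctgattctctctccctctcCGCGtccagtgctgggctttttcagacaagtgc
DKK1 (chr10:52314031-52314330, plus strand): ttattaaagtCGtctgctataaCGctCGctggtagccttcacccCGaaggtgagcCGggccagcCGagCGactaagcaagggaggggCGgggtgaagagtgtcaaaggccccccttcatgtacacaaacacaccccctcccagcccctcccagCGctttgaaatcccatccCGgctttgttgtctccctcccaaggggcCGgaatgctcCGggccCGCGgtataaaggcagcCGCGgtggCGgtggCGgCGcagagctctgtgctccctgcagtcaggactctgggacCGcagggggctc
SFRP2 (chr4:153789034-153789333, minus strand): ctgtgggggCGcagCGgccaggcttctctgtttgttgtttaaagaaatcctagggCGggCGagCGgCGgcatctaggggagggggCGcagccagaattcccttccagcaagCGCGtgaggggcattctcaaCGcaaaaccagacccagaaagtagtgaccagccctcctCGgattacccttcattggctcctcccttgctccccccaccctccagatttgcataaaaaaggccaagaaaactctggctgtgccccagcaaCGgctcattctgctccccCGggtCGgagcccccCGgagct
TFPI2 (chr7:93890704-93891003, minus strand): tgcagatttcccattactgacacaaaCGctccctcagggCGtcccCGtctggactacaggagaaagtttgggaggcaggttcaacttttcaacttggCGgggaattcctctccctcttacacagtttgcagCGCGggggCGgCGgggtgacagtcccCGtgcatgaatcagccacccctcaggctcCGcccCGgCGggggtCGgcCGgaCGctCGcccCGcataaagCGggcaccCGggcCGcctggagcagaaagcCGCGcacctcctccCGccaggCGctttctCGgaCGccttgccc
The NDRG4 window held 49 CG dinucleotides and the TFPI2 window 26, against 7 in the XAF1 window. DKK1 held 20, SFRP2 15 and SPOCK2 13.

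Knockdown and cell identity were checked first. The UHRF1 probe set read 6.20 with hairpin 2 and 6.67 with hairpin 5, against 8.54 with the scrambled hairpin, in log2 units throughout. It stayed above the background level defined below on both depleted arrays, so UHRF1 RNA was lowered and not absent. All 7 epithelial markers lay above the background level on every array, among them EPCAM and KRT18, while 4 of 5 measured leukocyte and blood markers, 7 of 8 fibroblast and endothelial markers and 2 of 5 neuron and glia markers were near background. HBB, COL1A1 and MBP of these lists were expressed on every array, and their part in the results was not tested. RBFOX3 and SYP lay between. Array medians were 2.98 with hairpin 2, 3.04 with hairpin 5 and 3.002 with the scrambled hairpin, and Pearson's r across probe sets was between 0.987 and 0.989 for the 3 pairs of arrays. The number of arrays limits the precision.

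Most of the genes read as low as genes the cells are not expected to use, on the control and on both depleted arrays. The deposited values carry no detection calls, so 107 probe sets of 82 olfactory receptor genes served to show where an unused probe set reads. Their 95th percentile was 3.62 on the hairpin 2 array, 3.68 on the hairpin 5 array and 3.72 on the scrambled array. A probe set at or below this level on every array is called near background, and one above it on every array is called expressed. By this rule 26 of the 40 genes had all their probe sets near background, 11 had an expressed probe set, and IGFBP7, SPOCK2 and XAF1 lay between. Over all 19775 named genes, 43.9% were near background and 50.1% expressed. The count rests on the level chosen: at the array median, 10 rather than 26 of the 40 genes were near background. RMA levels depend on the probes as well as on the transcript, so beyond this rule levels are compared between arrays and not between genes. The rule itself sets probe sets against those of other genes, so a gene's class can also depend on its probes. In bulk RNA, fewer cells with a transcript and less transcript per cell cannot be told apart.

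**Figure D1:**
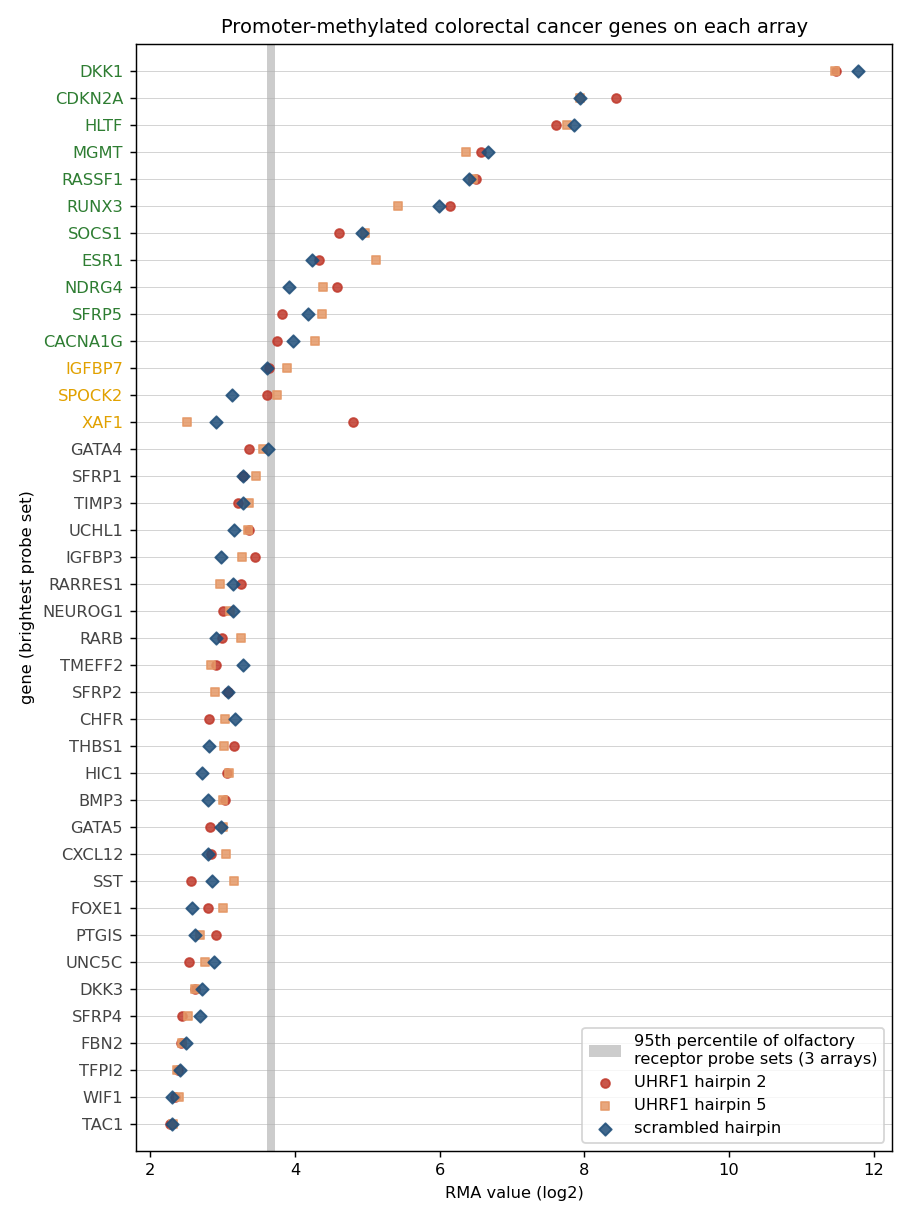
Log2 RMA value (x axis) of the brightest probe set of each of the 40 genes (y axis) on the hairpin 2, hairpin 5 and scrambled arrays, 1 symbol per array. The grey band spans the 95th percentiles of olfactory receptor probe sets, 3.62 to 3.72. The 26 genes named in dark grey stayed at or below it on every array, the 11 in green lay above it on every array, and only XAF1 crossed it by more than 1 log2 unit on 1 array.

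Of the 112 probe sets, 0 reached 1.5-fold on both depleted arrays together, whether above or below the control. Over all probe sets, 0.410% were 1.5-fold or more higher on both and 0.699% lower, which for a list of this size is less than 1 probe set in each direction. The share depended on level: near background it was 0.00871% higher and 0.0697% lower, and among expressed probe sets 1.07% higher and 1.65% lower. The list held 89 near-background and 17 expressed probe sets, so the count of 0 is close to the background. With limma, 0 of the 112 passed an adjusted p of 0.05 (smallest adjusted p = 0.9998), as did 0 of all 54613 (0%). At an unadjusted p under 0.05 there were 2, the probe sets of NDRG4 and SPOCK2 described below, and the share over all probe sets was 2.92%. The median 95% interval of limma reached 0.47 to each side of a member's mean difference. This is the interval of a single probe set, and a call after adjustment over all probe sets needs a larger difference. In simulated data the fit missed changes of 2-fold, so the 0 calls say nothing about changes of that size or smaller. Larger changes can be missed too: UHRF1 itself, with a mean difference of −2.11, had an adjusted p of 0.9998. An exact permutation over the 3 splits of the arrays cannot give a p below 0.333.

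Counted at any size, 42 of the 112 probe sets (37.5%) were higher on both depleted arrays than on the control, and the same held for 31.7% of all probe sets. On both arrays 32 (28.6%) were lower, against 30.8% of all probe sets. Among the 89 near-background probe sets 35 were higher on both and 26 lower, against 32.4% and 30.8% of all near-background ones. Among the 17 expressed probe sets 3 were higher on both (ESR1, NDRG4 and RASSF1) and 5 lower (CDKN2A, DKK1, HLTF, MGMT and RUNX3), against 29.4% and 32.5% of all expressed ones. With each of the 40 genes taken by its brightest probe set, 16 were higher on both and 12 lower, against 30.5% and 31.0% of all named genes, and 0 reached 1.5-fold on both, against 0.460% higher and 1.00% lower. The median difference of the members was −0.01 with hairpin 2 and 0.05 with hairpin 5, and over all probe sets it was −0.01 and 0.01. With hairpin 2, 4 probe sets (3.57%) exceeded the control 1.5-fold or more, against 2.75% of all probe sets, and 0 were 1.5-fold lower, against 1.42%. With hairpin 5, 2 (1.79%) were 1.5-fold higher, against 1.61%, and 1 (0.893%) was 1.5-fold lower, against 3.77%. Counts this small cannot be set apart from the shares over the whole array.

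**Figure D2:**
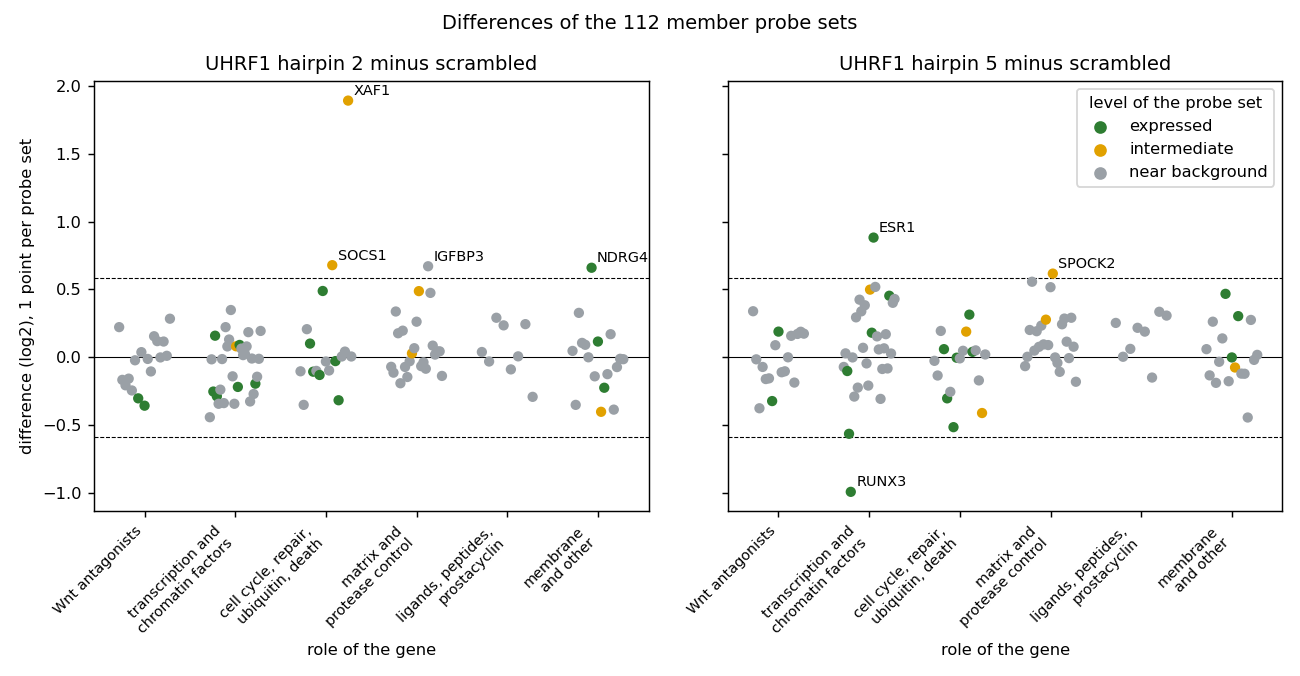
Hairpin minus scrambled difference in log2 units (y axis) of all 112 probe sets by role of the gene (x axis), with hairpin 2 in the left panel and hairpin 5 in the right. Each point is 1 probe set, coloured by its level, and dashed lines mark 1.5-fold. With hairpin 2 the points beyond the lines belong to XAF1, SOCS1, IGFBP3 and NDRG4, and with hairpin 5 to ESR1, SPOCK2 and RUNX3.

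Of the 7 secreted Wnt antagonists, 5 were near background, and DKK1 and SFRP5 were expressed. SFRP1, SFRP2, SFRP4, DKK3 and WIF1 were near background with all 15 of their probe sets, which read 2.28 to 3.29 with hairpin 2, 2.13 to 3.46 with hairpin 5 and 2.13 to 3.28 with the scrambled hairpin. SFRP proteins bind Wnt ligands directly, as WIF1 does. Their differences ran from −0.24 to 0.28 with hairpin 2 and from −0.37 to 0.34 with hairpin 5. SFRP2, for instance, read 3.07 with hairpin 2 and 2.89 with hairpin 5, against 3.07 with the scrambled hairpin. SFRP5 was just above the background level, at 3.82 and 4.37 in depleted cells, against 4.18 in control cells, and its depleted arrays lay on either side of the control.

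DKK1, which blocks the Wnt co-receptors LRP5 and LRP6, was far above the background level on every array. It read 11.48 with hairpin 2 and 11.46 with hairpin 5, against 11.78 with the scrambled hairpin. Both depleted arrays were below the control, by −0.30 and −0.32, a mean difference of −0.31 ± 0.01 (SD, n = 2 hairpins). The 95% interval of limma ran from −0.74 to 0.11, and the adjusted p was 0.9998.

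Among the transcription and chromatin factors, GATA4 and GATA5, zinc finger factors of endoderm, the repressor HIC1, the proneural factor NEUROG1, the forkhead factor FOXE1 and the retinoic acid receptor RARB were all near background. Their 17 probe sets differed from the control by −0.44 to 0.35 with hairpin 2 and by −0.31 to 0.43 with hairpin 5. Nearest to the background level was a GATA4 probe set that read 3.36 with hairpin 2 and 3.55 with hairpin 5, against 3.63 with the scrambled hairpin, so it was below the control on both depleted arrays. HIC1 read 3.06 and 3.09 in depleted cells, against 2.71 in control cells, and FOXE1 2.80 and 3.003, against 2.58. For both genes the other probe set did not share this: it differed by −0.01 and 0.17 for HIC1 and by −0.34 and −0.22 for FOXE1.

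HLTF, a helicase-like factor that helps replication past DNA damage, was expressed, at 7.61 with hairpin 2 and 7.76 with hairpin 5, against 7.86 with the scrambled hairpin. RUNX3, a runt-domain transcription factor, had 3 expressed probe sets that did not move together. The brightest read 6.14 with hairpin 2 and 5.42 with hairpin 5, against 5.99 with the scrambled hairpin. Another, 204198_s_at, read 5.14 and 4.43 in depleted cells, against 5.42 in control cells, and so was 0.99 lower with hairpin 5. The third, 234928_x_at, read 5.16 with hairpin 2 and 5.81 with hairpin 5, against 5.36, on either side of the control.

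ESR1, the oestrogen receptor alpha gene, had 9 probe sets, of which 6 were near background. The brightest, 211235_s_at, read 4.33 with hairpin 2 and 5.12 with hairpin 5, against 4.24 with the scrambled hairpin. Only the hairpin 5 array stood apart, 1.84-fold above the control, and the mean difference was 0.49 ± 0.56 (SD, n = 2 hairpins). The mean over its 9 probe sets was −0.03 with hairpin 2 and 0.22 with hairpin 5. The directions differed between probe sets: 205225_at, near background, was lower on both depleted arrays, by −0.24 and −0.29. The expressed ones were 211235_s_at and 211234_x_at, so without probe sets ending in _x_at or _s_at the gene was not expressed by the rule.

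Of the cell cycle, repair, ubiquitin and cell death genes, CDKN2A, RASSF1, MGMT and SOCS1 were expressed. The brightest CDKN2A probe set, 209644_x_at, read 8.43 with hairpin 2 and 7.94 with hairpin 5, against 7.94 with the scrambled hairpin. CDKN2A encodes the kinase inhibitor p16 and the p53 activator ARF. Its probe set 207039_at read 5.53 and 5.15 in depleted cells, against 5.66 in control cells, and 211156_at read 4.32 and 4.66, against 4.35. The 3 probe sets gave 3 different orders of the arrays, and no direction can be given for the gene.

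MGMT, which removes alkyl groups from guanine, read 6.57 with hairpin 2 and 6.37 with hairpin 5, against 6.67 with the scrambled hairpin. RASSF1, a scaffold of Hippo and microtubule signalling, read 6.51 and 6.47 in depleted cells, against 6.41 in control cells. MGMT was lower on both depleted arrays, by 0.30 at most, and RASSF1 higher on both, by 0.10 at most. The mitotic checkpoint ligase CHFR and the neuronal deubiquitinase UCHL1 were near background with all 5 of their probe sets. The brighter UCHL1 probe set read 3.36 and 3.34 in depleted cells, against 3.15 in control cells.

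XAF1, an interferon-inducible protein that binds the caspase inhibitor XIAP, gave the largest difference of any member. Its probe set 228617_at read 4.80 with hairpin 2 and 2.50 with hairpin 5, against 2.91 with the scrambled hairpin. The hairpin 2 array alone was above background, 3.71-fold above the control, and 0.558% of all probe sets were 2-fold or more higher on that array, while hairpin 5 was 0.41 below the control. Hairpin 2 and hairpin 5 were thus 2.30 apart, and 1.22% of all probe sets were at least 2-fold apart between them, up or down. With limma the mean difference of 0.74 ± 1.63 (SD, n = 2 hairpins) had an adjusted p of 0.9998. The other 2 probe sets of XAF1 were near background on every array, with differences of −0.10 and 0.01 for hairpin 2 and of −0.25 and 0.02 for hairpin 5.

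The interferon-stimulated genes moved with XAF1 on the hairpin 2 array. Of 15 measured genes of that list, 12 were at least 1.5-fold higher with hairpin 2 and 2 with hairpin 5, against 3.76% and 1.93% of all named genes. The list was chosen with earlier results of these data known, so its gap to all named genes only describes it. For hairpin 2 the median of the list was 2.74, and for hairpin 5 it was 0.17. IFI27 read 10.58 with hairpin 2 and 4.04 with hairpin 5, against 3.81 with the scrambled hairpin. IRF9, a subunit of the factor that interferon activates, read 8.88 with hairpin 2 and 5.95 with hairpin 5, against 6.22. This is the order of the arrays seen for XAF1, but most of the list did not share it. Of the 15 genes, 9 were higher on both depleted arrays and 0 lower, against 30.5% and 31.0% of all named genes. The 2 genes 1.5-fold higher with hairpin 5 were IFIT1, at 10.01 and 5.41, against 3.22, and IFITM1, at 10.46 and 5.66, against 4.15. The part of the interferon genes in the XAF1 value was not tested.

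**Figure D3:**
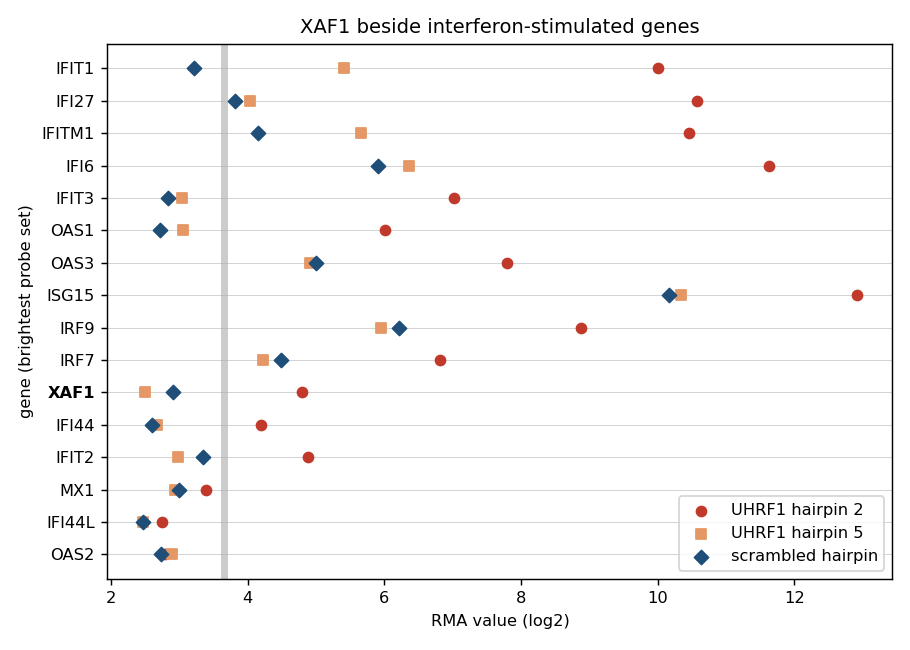
Log2 RMA value (x axis) of the brightest probe set of XAF1 and of 15 interferon-stimulated genes (y axis), sorted by the hairpin 2 difference, with 1 symbol each for the hairpin 2, hairpin 5 and scrambled arrays. The grey band is the background level. XAF1 stood above the band with hairpin 2 only, at 4.80, and 12 of the other 15 were at least 1.5-fold above the control on that array.

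SOCS1, an inhibitor of JAK kinases that cytokines induce, did not show this with its expressed probe set. That probe set, 213337_s_at, read 4.61 with hairpin 2 and 4.96 with hairpin 5, against 4.92 with the scrambled hairpin. A dimmer one, 210001_s_at, read 3.62 with hairpin 2 and 3.13 with hairpin 5, against 2.94, and so reached the background level with hairpin 2 alone, 1.60-fold above the control. The remaining 2 SOCS1 probe sets differed by −0.10 to 0.05. The motif GAAA, any 2 bases and GAAA again, the core of an element bound by interferon-activated factors, was searched on both strands of the promoter windows. It was found for SOCS1 alone among the 31 member genes, for 10 of 12 interferon-stimulated genes with a window, and for 4.38% of all genes of the table. With this exact spacing it was not present in the XAF1 windows. The XAF1 window printed above does hold GAAA repeated at a closer spacing, which the search did not cover. Whether interferon-activated factors bind at XAF1 was not tested. The search was added with the values known.

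The matrix and protease genes held the member with the lowest unadjusted p. SPOCK2, a secreted proteoglycan also called testican-2, read 3.62 with hairpin 2 and 3.75 with hairpin 5, against 3.13 with the scrambled hairpin. Both depleted arrays were above the control, 1.40-fold and 1.53-fold, but neither exceeded the background level by more than 0.07. The mean difference of 0.55 ± 0.09 (SD, n = 2 hairpins) had a 95% limma interval from 0.10 to 1.01, an unadjusted p of 0.0293 and an adjusted p of 0.9998. Its second probe set was also higher on both, at 3.30 and 3.55 in depleted cells, against 3.04 in control cells, and stayed near background.

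IGFBP3, a binding protein of insulin-like growth factors, had both probe sets near background and higher on both depleted arrays. They read 3.45 and 3.36 with hairpin 2 and 3.27 and 2.94 with hairpin 5, against 2.98 and 2.69 with the scrambled hairpin. IGFBP7, a related secreted protein, read 3.64 with hairpin 2 and 3.89 with hairpin 5, against 3.61, which put the depleted arrays just above the background level and the control just below it. The metalloprotease inhibitor TIMP3, the matrix glycoprotein THBS1, the microfibril protein FBN2 and the serine protease inhibitor TFPI2 were near background with every probe set. The 2 TFPI2 probe sets lay between 2.31 and 2.42 on the 3 arrays, and the 3 of FBN2 differed from the control by −0.07 to 0.02. THBS1 had 7 probe sets, with differences from −0.19 to 0.56, and its brightest read 3.15 with hairpin 2 and 3.02 with hairpin 5, against 2.81.

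The ligand, peptide and mediator genes were all near background. They were BMP3, a ligand of the TGF-beta family, the hormone gene SST, TAC1, which encodes substance P, the chemokine CXCL12, and PTGIS, the enzyme that makes prostacyclin. Their 8 probe sets read 2.27 to 3.03 with hairpin 2, 2.31 to 3.16 with hairpin 5 and 2.31 to 2.85 with the scrambled hairpin. BMP3 read 3.03 and 3.01 in depleted cells, against 2.79 in control cells. SST read 2.56 with hairpin 2 and 3.16 with hairpin 5, against 2.85, so that the depleted arrays lay on opposite sides of the control.

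In the remaining group NDRG4, a cytoplasmic protein of the NDRG family, was the one gene above background and higher on both depleted arrays by more than 0.4. Its only probe set read 4.58 with hairpin 2 and 4.38 with hairpin 5, against 3.92 with the scrambled hairpin. It was 1.58-fold and 1.38-fold above the control, with a mean difference of 0.56 ± 0.14 (SD, n = 2 hairpins). The limma interval ran from 0.07 to 1.06, with an unadjusted p of 0.0346 and an adjusted p of 0.9998, so it did not pass the test. The control value lay 0.20 above the background level.

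CACNA1G, a T-type calcium channel subunit, had 5 probe sets, of which 2 were expressed and 2 near background. Its brightest read 3.75 with hairpin 2 and 4.27 with hairpin 5, against 3.97 with the scrambled hairpin. The netrin receptor UNC5C, the transmembrane protein TMEFF2 and the retinoid-responsive gene RARRES1 were near background with all 11 of their probe sets. The brightest TMEFF2 probe set was lower on both depleted arrays, at 2.90 and 2.84, against 3.29 in control cells, and the other 2 differed by −0.12 to 0.17.

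**Figure D4:**
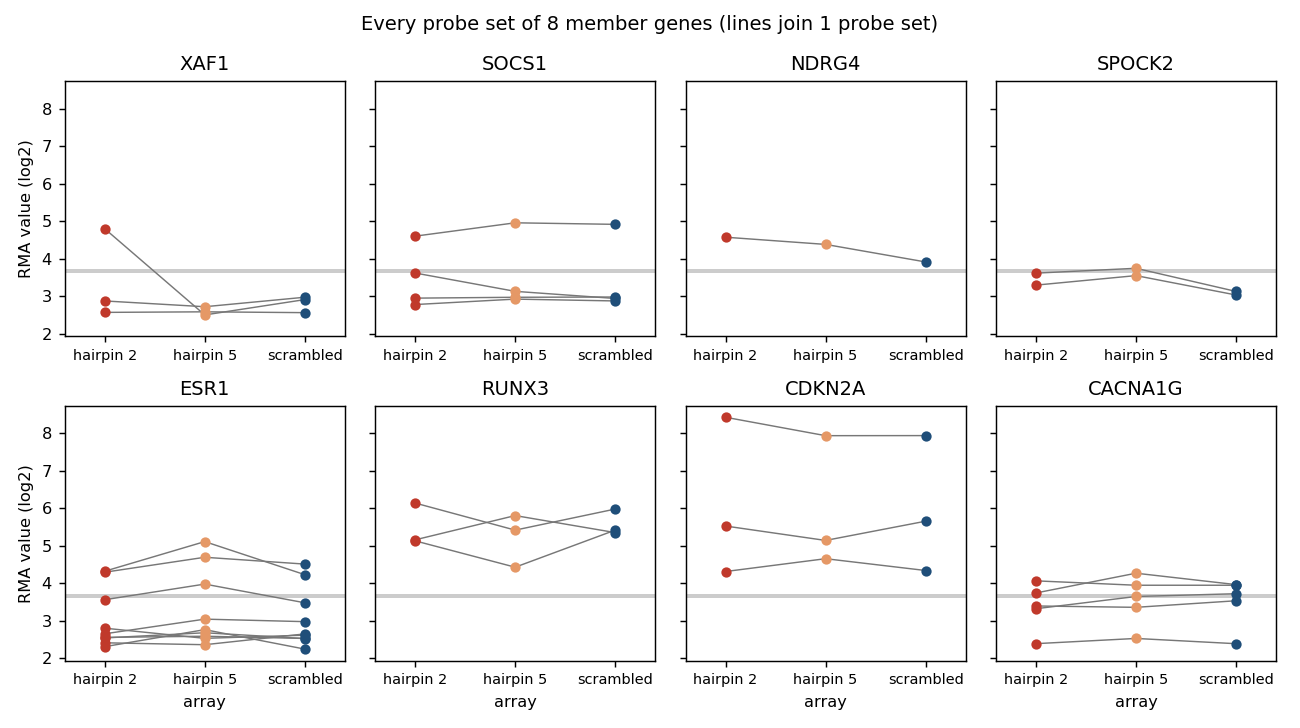
Log2 RMA value (y axis) of every probe set of 8 genes on the hairpin 2, hairpin 5 and scrambled arrays (x axis), with a line joining the values of 1 probe set and the background level as a grey band. In XAF1 a single probe set stood above the band, at 4.80 with hairpin 2, both SPOCK2 probe sets were higher on the 2 depleted arrays, and the lines of RUNX3 and CDKN2A crossed or ran in different directions.

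Several members lay near the edge of the background rule. Just inside it as expressed were CACNA1G, NDRG4 and SFRP5, whose lowest margins over the level were 0.13, 0.20 and 0.21. Just outside it, among genes near background, were GATA4, IGFBP3 and SFRP1. Their highest probe sets came within 0.09, 0.16 and 0.22 of the level on their best array. IGFBP7 and SPOCK2, which lay between the classes, exceeded the level by at most 0.21 and 0.07.

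Between the hairpins, 3 member probe sets (2.68%) were at least 1.5-fold higher with hairpin 2 than with hairpin 5, against 4.82% of all probe sets. These were XAF1 and 2 of RUNX3. Another 3 (2.68%), of ESR1, SST and 1 of RUNX3, were 1.5-fold lower with hairpin 2, against 1.55%. These shares depended on level. Of the 17 expressed member probe sets 2 (11.8%) were higher and 2 (11.8%) lower, against 11.9% and 2.58% of all expressed ones. Of the 89 near background 0 were higher and 1 (1.12%) lower, against 0.334% and 0.642% of all near-background ones. Such counts are too small to compare. Near background, the median absolute difference between the hairpins was 0.13 over the 89 member probe sets of that class and 0.13 over all 34448 of it. The near-background members thus varied between the hairpins about as much as other dim probe sets did. Among expressed probe sets the median was 0.38 over the 17 of the members and 0.25 over all 17078, a gap that was not tested.

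**Figure D5:**
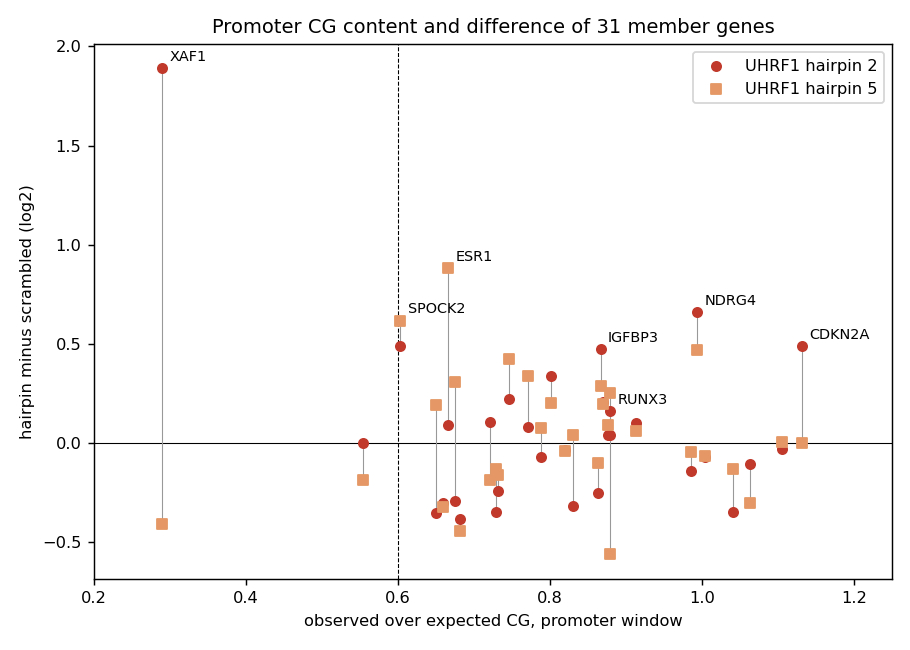
Hairpin minus scrambled difference in log2 units (y axis) of the brightest probe set of 31 genes against the observed over expected CG ratio of the promoter window (x axis), with a line joining the hairpin 2 and hairpin 5 values of a gene and a dashed line at a ratio of 0.6. XAF1, at a ratio of 0.29, had the highest single value, 1.89 with hairpin 2.

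The promoter windows of near-background and expressed members had much the same CG content. The observed over expected ratio had a median of 0.80 over 19 near-background genes and of 0.87 over 10 expressed ones. The near-background genes had 23 windows and the expressed ones 20, so taking the highest window favours the expressed genes. NDRG4 and SPOCK2, which were higher on both depleted arrays, stood at 0.99 and 0.60. TAC1, near background and within 0.03 of the control on both depleted arrays, stood at 1.10.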

How the data were processed

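The authors' deposited table holds log2 values of 3 single-colour Affymetrix arrays. The submitters' processing notes name RMA and Affymetrix Expression Console, with versions and settings not given in the sources used here. That the scale is log2 follows from the spread of the deposited values, and their centring is not stated. Of 54613 probe sets, 41091 had 1 gene in the platform annotation, 1801 had several and 11721 were unnamed, and a RefSeq table (GRCh38.p14) matched 41037 of them by gene identifier and changed 0 symbols.

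Every probe set entered 1 linear model in limma 3.58.1 (lmFit and eBayes, R 4.3.3), depleted against control. Tests were two-sided, and p-values were adjusted by Benjamini-Hochberg across the whole table. Each probe set has 1 residual degree of freedom, 3.63 after moderation, and the single control array is taken to vary as the depleted arrays do. Tested on simulated data, the fit recovered most changes of 4-fold and more but none of 2-fold. The simulated noise had the same spread for all probe sets of similar level, which real probe sets need not share. In the real data UHRF1, with a mean difference of −2.11, had an adjusted p of 0.9998 with limma. The simulation thus does not show that changes of 4-fold would be called here. Differences are hairpin minus scrambled. The probe set with the highest mean stands for its gene. Full values were to be given for every expressed member and every member 1.5-fold from the control on both depleted arrays or 2-fold on 1. SPOCK2 and other genes outside this rule were given values once these were seen. The members and lists were chosen with earlier results of these data known. Alternatives were other normalizations, variance priors, probe set choices, filters, thresholds and background levels, and leaving out each hairpin.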

Additional observations from a re-analysis of the deposited data

How the results depend on the processing

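With limma, 0 member probe sets passed under all 8 alternatives run (eBayes with a trend or robust, a 40th percentile filter, an adjusted p of 0.1, 1 probe set per gene, median centring, cyclic loess, no probe sets ending in _x_at or _s_at), with smallest adjusted p from 0.9995 to 1.0 and 0 to 3 at an unadjusted p under 0.05. Likewise 0 were 1.5-fold higher or lower on both depleted arrays under the 7 alternatives that keep both hairpins, while with a single hairpin kept the counts ran from 2 to 4 higher and from 0 to 1 lower. The median member difference, 0.03, lay between −0.01 and 0.05 with 1 hairpin left out. The number of expressed genes rests on the background level: 11 became 18 at the array median, where 10 rather than 26 were near background, 6 at the level of other cell types' markers, 8 at the 99th percentile of olfactory receptors (without CACNA1G, NDRG4 and SFRP5), and 5 of the 26 genes left without probe sets ending in _x_at or _s_at. The alternatives for counts of single hairpins, which follow, were chosen after seeing the data. The 4 probe sets higher with hairpin 2 became 1 without _x_at and _s_at and 2 as gene means. The 2 higher with hairpin 5 became 1 with median centring, 1 with cyclic loess, 0 without _x_at and _s_at and 0 as gene means. The 1 lower became 2 with median centring, 0 without _x_at and _s_at and 0 as gene means. Of 13 genes given in full, the mean difference changed sign in 3 cases with both hairpins kept: CDKN2A, to −0.32 without _x_at and _s_at, CACNA1G, to −0.04, and SOCS1, to 0.06, both as gene means. Without _x_at and _s_at, the mean difference of ESR1 was 0.05, against 0.49 with all probe sets. Leaving out hairpin 2 turned XAF1 to −0.41, CDKN2A to −0.002, SFRP5 to 0.19 and SOCS1 to 0.04, and leaving out hairpin 5 turned CACNA1G to −0.22 and RUNX3 to 0.16. Median centring moved the median of all probe sets by 0.03 with hairpin 2 and −0.04 with hairpin 5. No paired analysis was possible because the control has 1 array and shares fewer than 2 replicate numbers with the depleted group.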

Other observations

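Another 30 genes known as methylated in colorectal cancer, of which 28 were measured, went both ways. With both hairpins 8 were higher and 12 lower than the control at any size, against 30.5% and 31.0% of all named genes. At 1.5-fold 0 were higher on both, against 0.460% of all named genes, and 1 was lower, against 1.00%. This was KLF4, a transcription factor of differentiated gut epithelium, at 6.62 and 5.68 in depleted cells, against 7.41 in control cells. VIM, the intermediate filament gene used as a stool marker, was higher on both, at 4.38 and 4.18, against 3.79. IKZF1, a zinc finger factor of lymphocytes, was lower on both, at 3.73 and 4.14, against 4.46. By the same background rule 17 of the 28 were near background, among them SOX17, GREM1 and CDO1, against 43.9% of all named genes.

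The DNA methylation machinery, 17 genes measured, held 1 gene (5.88%) at least 1.5-fold lower on both depleted arrays, UHRF1 itself, and 0 higher. Over all named genes these shares were 1.00% and 0.460%. With hairpin 5, 3 genes (17.6%) were 1.5-fold lower, against 6.04% of all named genes, and with hairpin 2, 1 (5.88%), against 2.03%. The 3 were UHRF1, the target of the hairpins, UHRF2 and ZBTB33, and the 1 was UHRF1. Of the 17 genes 15 were expressed. Among all expressed probe sets 9.32% were 1.5-fold lower with hairpin 5 and 3.23% with hairpin 2. UHRF2, the paralog of UHRF1, read 5.56 with hairpin 2 and 4.71 with hairpin 5, against 5.63 in control cells. DNMT1 read 8.94 and 8.50, against 8.81, DNMT3A 4.005 and 3.89, against 4.003, and DNMT3B 6.47 and 6.15, against 6.36. CTCF, an insulator protein sensitive to CG methylation, read 6.88 and 6.74, against 6.38. TET1, which oxidises methylated cytosine, was near background on all 3 arrays, at 2.59 and 2.58 in depleted cells, against 2.99 in control cells. TET1, ZBTB33, SOX17, GREM1 and CDO1 were named after their values were seen.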
